A study of Homo sapiens with 6 samples.

Results

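The kinesin genes of the KIF family were taken as the rows of the deposited table whose symbol is KIF or KIFC followed by a number and letters and that list a protein-coding transcript, which gave 43 genes of 58825 in the table. By textbook roles, 15 were classed as mitotic kinesins, 15 as transport kinesins and 12 as other kinesins of cilia, signalling or microtubule growth. The remaining row, KIF1BP, is a binding protein that regulates kinesins and has no motor domain. KIF28P and KIF4CP carry matching symbols but only pseudogene or non-coding transcripts and were left out. The cells were 143B, a human osteosarcoma line, grown with 10% serum and transfected with 80 nmol/L siRNA for 36 h. The control group (n = 3 libraries) received a negative control siRNA, and the other group (n = 3 libraries) received a siRNA against SIGLEC15, a sialic acid-binding receptor. Nothing in the labels tells if the 3 libraries per group are independent cultures; if not, the p-values reflect technical spread alone.

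Kinesins are ATP-driven motors that walk on microtubules, or take their ends apart, with a conserved head domain. Mitotic kinesins separate the spindle poles, move and hold chromosomes and build the central spindle for cytokinesis, and their genes are known to peak in G2 and M phase. Transport kinesins carry vesicles, organelles and mRNAs, many of them in neurons as well as in dividing cells.

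Total counts per library ranged from 57966691 to 67655254, so that counting error was small for all but the weakest kinesins. SIGLEC15 itself had 12, 10 and 22 counts in the control libraries and 12, 8 and 6 in the SIGLEC15 siRNA libraries. Its difference did not pass the test (log2 fold change -0.82, SE 0.598, edgeR adjusted p = 0.529; two-sided exact permutation p = 0.2, with 0.1 the lowest possible for this design), so a lower target transcript was not shown. Of the mesenchymal and bone markers, VIM was read at 412.6 to 502.8 FPKM (fragments scaled by transcript length and library size), while THY1 had no count in any library and COL1A2 and ALPL stayed at or under 0.151 FPKM. Of the 6 tested markers of this list 2 rose, SPARC, a bone matrix protein, from 60.79 to 64.4 FPKM in the control libraries to 107.6 to 111.2 FPKM (log2 fold change 0.8, edgeR adjusted p = 0.00137), and COL1A1, a collagen chain, from 1.05 to 1.16 FPKM to 1.7 to 1.85 FPKM (log2 fold change 0.69, edgeR adjusted p = 0.0134). The COL1A1 call was lost in 4 of 6 fits without 1 library (edgeR adjusted p up to 0.0664). The 2 that rose were 33.3% of the tested markers of this list, where 4.65% of all genes tested were called. The summed leukocyte markers stayed at or under 0.0979 FPKM and the endothelial ones at or under 0.162 FPKM. Epithelial markers summed to 3.3 to 4.83 FPKM and neuronal ones to 0.974 to 1.93 FPKM. Most of the epithelial sum came from EPCAM, at 2.85 to 4.4 FPKM over the 6 libraries, while CDH1, KRT5 and KRT14 had 0 counts.

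In the control libraries mitotic kinesins dominated the family. On the FPKM scale, which corrects for transcript length and so allows levels of different genes to be compared, they made up 65.3% ± 0.492 (SD, n = 3) of the summed signal of the 42 motor genes, transport kinesins 29.7% ± 0.266 and the others 5.02% ± 0.254. Of the 15 mitotic genes, 10 lay above 10 FPKM, 3 between 1 and 10 and 2 below 1, with a median of 14.73 FPKM. Of the 15 transport genes 3 lay above 10 FPKM, 10 between 1 and 10 and 2 below 1, with a median of 4.05 FPKM. None of the 12 other kinesins exceeded 10 FPKM. KIF2B, KIF12 and KIF19 had no count in any library, and KIF25 had 4 counts in each of 2 libraries, 1 per group; these 4 genes did not pass the filter on low counts, which the other 39 members passed.

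KIF2C, which depolymerises microtubules at centromeres and is also called MCAK, was the most abundant kinesin transcript at 46.32 FPKM ± 0.862 (SD, n = 3) in the control group. KIF5B, the ubiquitous heavy chain of conventional kinesin, followed with 35.84 FPKM ± 1.37. Next came 4 mitotic genes, the chromokinesin KIF4A (31.49 FPKM ± 1.34), the pole-separating motor KIF11, also called Eg5 (28.67 ± 1.07), the minus-end motor KIFC1 (25.57 ± 1.68) and KIF20A (24.61 ± 1.54). KIFC1, KIF20A and the vesicle motor KIF1C (24.39 FPKM ± 0.456) differed from one another by less than the SD of KIFC1. The neuronal heavy chains KIF5C and KIF5A were at 4.81 and 1.74 FPKM, well below KIF5B. Within heterotrimeric kinesin-2, the motor of intraflagellar transport, the 2 motor subunits were far apart, with KIF3B at 17.42 FPKM ± 1.49 and KIF3A at 1.92 FPKM ± 0.372, and their accessory subunit KIFAP3 was at 4.05 FPKM ± 0.162.

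**Figure D1:**
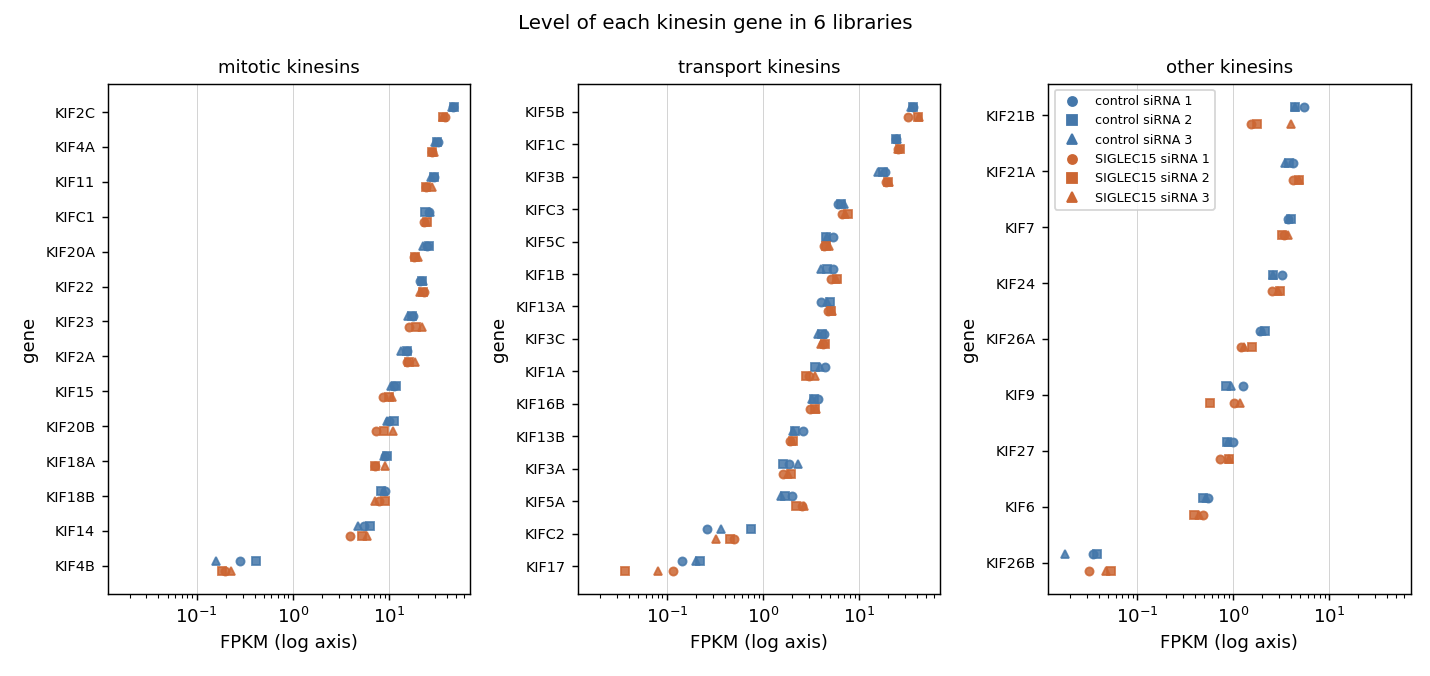
FPKM of each kinesin gene on a log axis, by class, with 1 point per library (blue for control siRNA, orange for SIGLEC15 siRNA; circle, square and triangle for replicates 1, 2 and 3). Most mitotic genes lie above 10 FPKM and most transport genes between 1 and 10. KIF17 and KIF21B spread widely among the SIGLEC15 siRNA libraries, the highest of which lies near the lowest control library. Genes with a 0 in any library are not drawn.

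After SIGLEC15 siRNA, 2 of the 39 tested kinesins fell, the mitotic genes KIF2C and KIF20A, and 0 rose (edgeR quasi-likelihood test, Benjamini-Hochberg adjusted p under 0.05 over all genes tested). At an unadjusted p under 0.05 in the edgeR test there were 12 of 39 (30.8%). The share was 19.1% of all genes tested and 23.05% of the 13827 protein-coding genes tested. DESeq2 called 8 of 39, against 17.1% of the 17043 genes to which it gave an adjusted p. These were the same 2 and, lower, KIF17, KIF1A and KIF26A and, higher, KIF1BP, KIF21A and KIF5A. The share called in the family, 5.13%, was close to the 4.65% called among all 18910 genes tested, of which 2.22% were called higher and 2.43% lower. Among the protein-coding genes tested 6.0% were called, with 3.08% lower. Both calls were in the mitotic class, where 2 of 14 tested members fell and 12 did not pass, while 0 of 15 transport kinesins and 0 of 9 others passed. The median log2 fold change was -0.16 over the mitotic class and 0.06 over the transport class, beside -0.01 over all genes tested. Among the mitotic genes 11 of 14 had a log2 fold change below 0, against 7 of 15 transport genes and 50.9% of all genes tested.

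**Figure D2:**
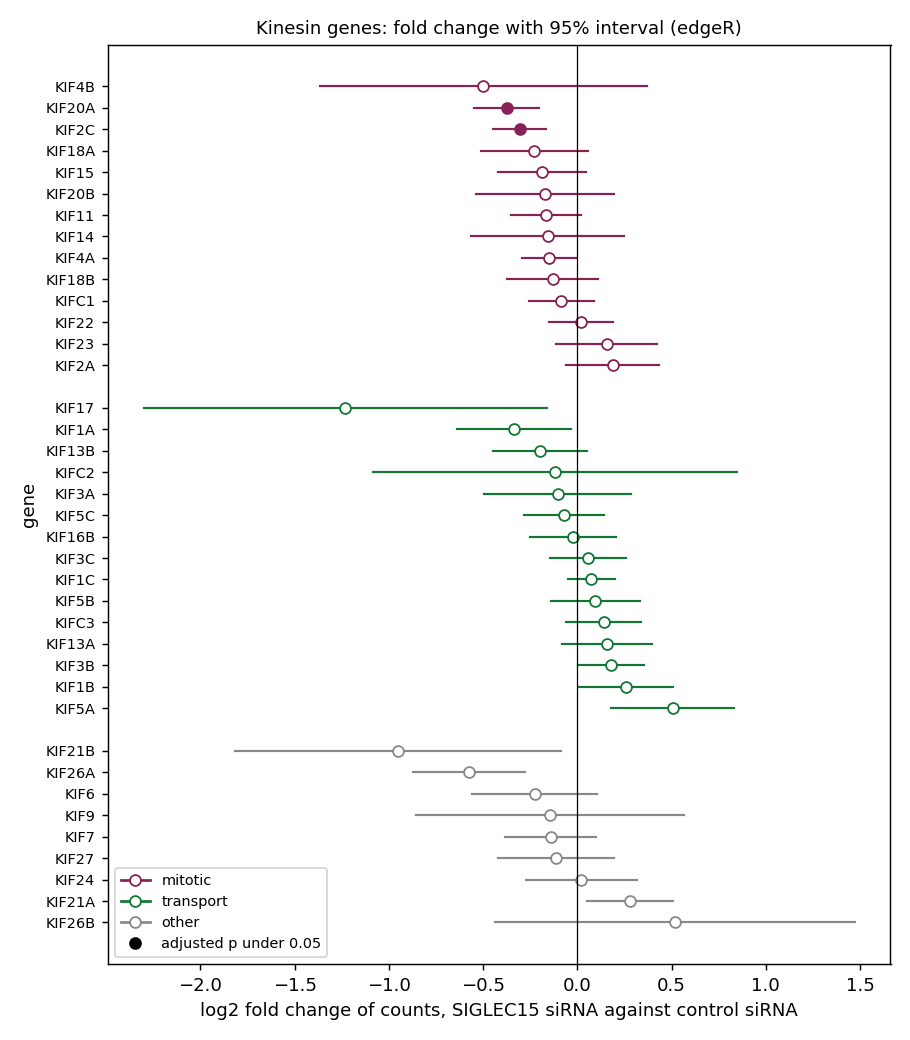
log2 fold change of counts, SIGLEC15 siRNA against control siRNA, for 38 tested motor genes by class, with bars for the 95% interval of the edgeR fit and filled points for adjusted p under 0.05. KIF2C and KIF20A are the 2 filled points, and 11 of the 14 mitotic genes lie left of 0.

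KIF2C was read at 46.34, 47.17 and 45.45 FPKM in the control libraries and at 38.72, 36.78 and 36.9 FPKM in the SIGLEC15 siRNA libraries. All 3 libraries of the second group lay below all 3 of the first. The change was 1.24-fold lower (log2 fold change -0.31, SE 0.0585, 95% interval -0.45 to -0.17, edgeR adjusted p = 0.0368). The gene (ENSG00000142945) spans chromosome 1, 44739818 to 44767767, on the plus strand in the table's coordinates.

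KIF20A, also called MKLP2, brings the chromosomal passenger complex to the central spindle. Its values were 25.09, 25.85 and 22.88 FPKM in the control libraries and 18.04, 18.84 and 20.03 FPKM after SIGLEC15 siRNA, again with the groups fully apart. It fell 1.3-fold (log2 fold change -0.38, SE 0.0725, 95% interval -0.55 to -0.2, edgeR adjusted p = 0.0379). The gene (ENSG00000112984) lies on chromosome 5, 138178719 to 138187723, plus strand. In GENCODE 29 it shares 68 exonic bases with CDC23 and 132 with BRD8, both on the opposite strand, and whether counting used strand is not given in the sources used here. CDC23, named for this overlap, moved the other way (log2 fold change 0.45, edgeR adjusted p = 0.0328).

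The calls of KIF2C and KIF20A were both lost when any 1 of the 6 libraries was left out, with edgeR adjusted p between 0.059 and 0.136 for KIF2C and between 0.0599 and 0.141 for KIF20A. They were lost as well with no filter on low counts. Their log2 fold changes stayed between -0.35 and -0.28 for KIF2C and between -0.42 and -0.34 for KIF20A over all alternatives.

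The other chromosome and spindle motors gave small differences that did not pass. KIF4A, which sets the length of the central spindle with PRC1, was at 32.59, 31.9 and 30 FPKM in the control libraries and at 28.24, 27.77 and 29.15 FPKM after SIGLEC15 siRNA (log2 fold change -0.15, SE 0.0602, edgeR adjusted p = 0.242). Its groups did not overlap, as in 3 of the 14 tested mitotic genes with lower values, where 13.7% of all genes tested were fully apart in that direction. KIF4B, its near-identical intronless copy, had 51 to 129 counts per library, and its reads may be shared with KIF4A. KIF11 was at 29.13, 29.44 and 27.45 FPKM against 24.17, 24.5 and 27.94 FPKM, overlapping through SIGLEC15 siRNA replicate 3 (log2 fold change -0.17, 95% interval -0.35 to 0.02). KIF15, which bundles spindle microtubules beside KIF11, had a log2 fold change of -0.19 (95% interval -0.42 to 0.04). KIF18A and KIF18B, which govern kinetochore and astral microtubule ends, had -0.23 (SE 0.119) and -0.13 (SE 0.101). KIFC1, which focuses spindle poles, had -0.08 (95% interval -0.26 to 0.09), and KIF22, which pushes chromosome arms outward, had 0.02 (95% interval -0.15 to 0.19). KIF2A, a depolymerase of spindle poles and neurites, had higher values in all 3 SIGLEC15 siRNA libraries as CPM, counts scaled to library size (log2 fold change 0.19, SE 0.104, edgeR adjusted p = 0.398), and shares 428 exonic bases with IPO11 on the same strand. It was the 1 mitotic gene whose groups were apart in that direction, where 12.9% of all genes tested were.

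The cytokinesis kinesins did not share a direction. KIF23, which forms the centralspindlin complex with RACGAP1, was at 18, 17.31 and 15.86 FPKM in the control libraries and at 16.14, 19.03 and 21.85 FPKM after SIGLEC15 siRNA (log2 fold change 0.16, 95% interval -0.11 to 0.42, edgeR adjusted p = 0.53). Its partner RACGAP1 was at 32.1, 28.01 and 30.64 FPKM against 31.61, 32.21 and 42.7 FPKM (log2 fold change 0.23, SE 0.131, edgeR adjusted p = 0.41). In both genes SIGLEC15 siRNA replicate 3 held the highest value of all libraries. KIF14, which brings citron kinase to the midbody, and KIF20B, which acts late in cytokinesis, had log2 fold changes of -0.16 (SE 0.171) and -0.17 (SE 0.154), with edgeR adjusted p of 0.693 and 0.615.

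**Figure D3:**
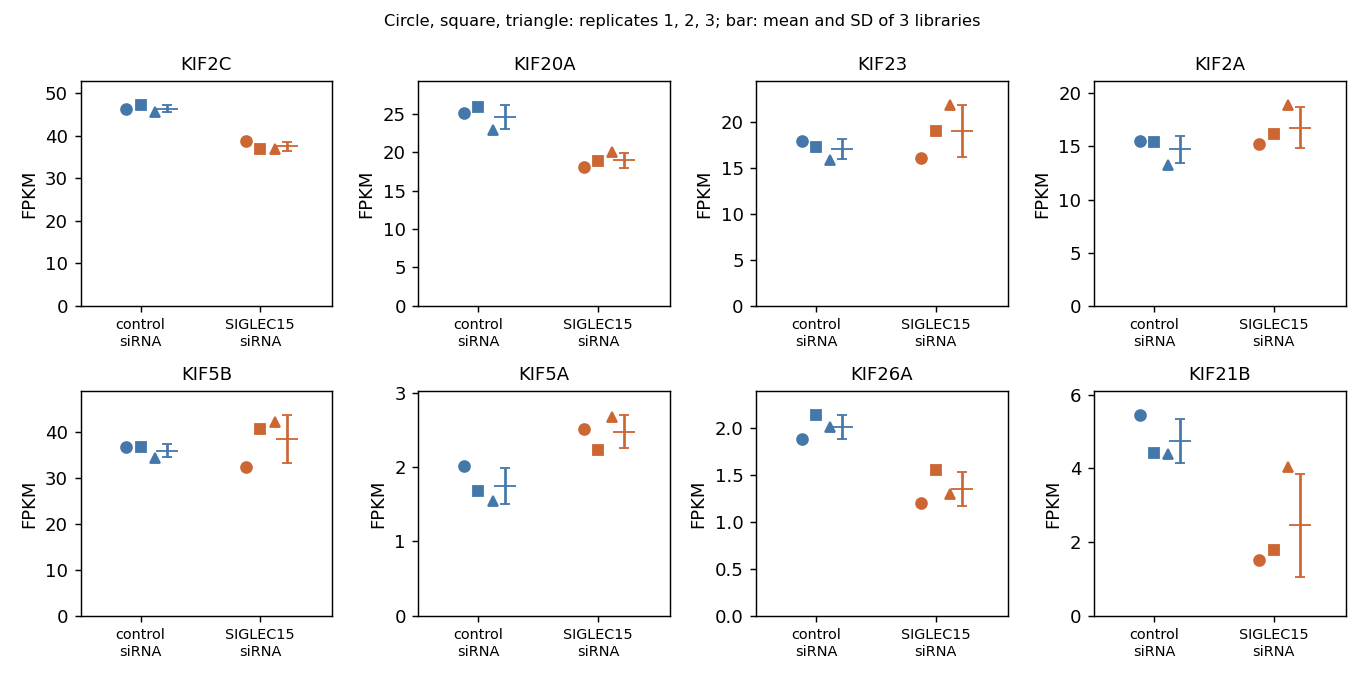
FPKM of 8 kinesin genes by library, with replicates 1, 2 and 3 as circle, square and triangle and the mean and SD of 3 libraries beside them. KIF2C and KIF20A are apart between the groups, KIF23 and KIF5B spread after SIGLEC15 siRNA, and KIF21B holds 2 low libraries and replicate 3 near the control level.

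SIGLEC15 siRNA replicate 3 held the highest value of its group in 10 of 14 tested mitotic kinesins, KIF23 and KIF2A included, where it lay farthest from the control level. This was not particular to the mitotic class, since replicate 3 was also highest in 8 of 15 transport and 5 of 9 other kinesins. For the mitotic class the median of its log2 deviations from the control means was -0.04, against -0.23 in replicate 1 and -0.2 in replicate 2. For the transport class the medians were 0.06, 0.08 and 0.06 in replicates 1, 2 and 3. MKI67, a proliferation marker, was also highest of its group in replicate 3, with 37.66, 35.38 and 27.6 FPKM in the control libraries and 15.66, 28.47 and 33.63 FPKM in SIGLEC15 siRNA replicates 1, 2 and 3 (log2 fold change -0.37, SE 0.266, edgeR adjusted p = 0.518). The 10 proliferation markers summed to 656.4 to 677.4 FPKM in the control group and 580.8 to 604.3 FPKM in the SIGLEC15 siRNA group. Of these 10, 9 had a log2 fold change below 0, against 50.9% of all genes tested. In 5 the groups were fully apart toward lower values and in 0 toward higher, where 13.7% and 12.9% of all genes tested were. At the threshold 1 fell (10%), 0 rose and 9 did not pass, where 4.65% of all genes tested were called. The one that fell was FOXM1, a transcription factor of G2/M genes, at 10.13, 13.91 and 14.33 FPKM against 5.29, 8.01 and 6.1 FPKM (log2 fold change -0.99, SE 0.189, edgeR adjusted p = 0.0366). The FOXM1 call held without control replicate 1 (adjusted p = 0.0418) and was lost without any 1 of the other 5 libraries (0.0602 to 0.121). Whether a different share of cycling cells contributed to the kinesin values was not tested, and in these bulk libraries fewer cells in G2 and M and less mRNA per cell cannot be told apart.

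The promoters of the mitotic class share sequence features that the choice of genes did not use. The RefSeq windows (GRCh38.p14), 250 bases before to 50 after the transcription start, were found for 34 of the 43 members, all 15 mitotic and 11 transport kinesins among them, and 7 members had more than 1 window. They were searched on both strands for TTTGAA, the letters of the cell cycle homology region (CHR) through which the DREAM and MuvB complexes are known to act, and for CCAAT, the box bound by NF-Y. TTTGAA was present in 10 of 15 mitotic and 1 of 11 transport kinesins, against 18.2% of all 27305 genes with a window. CCAAT was present in 11 of 15 mitotic and 4 of 11 transport kinesins, against 39.7% of all genes. KIF4A and its near-identical copy KIF4B both hold TTTGAA and CCAAT and enter these counts as separate genes. The 2 kinesins that fell, KIF2C and KIF20A, were not among the 10 with TTTGAA, and KIF20A but not KIF2C held CCAAT on the reverse strand. The variant TTCGAA, added after these counts were seen, was found in KIF22 alone of the mitotic class. A match of letters is a description and does not show binding. Other spellings of the CHR were not searched, so a gene without these letters cannot be said to lack a CHR.

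**Figure D4:**
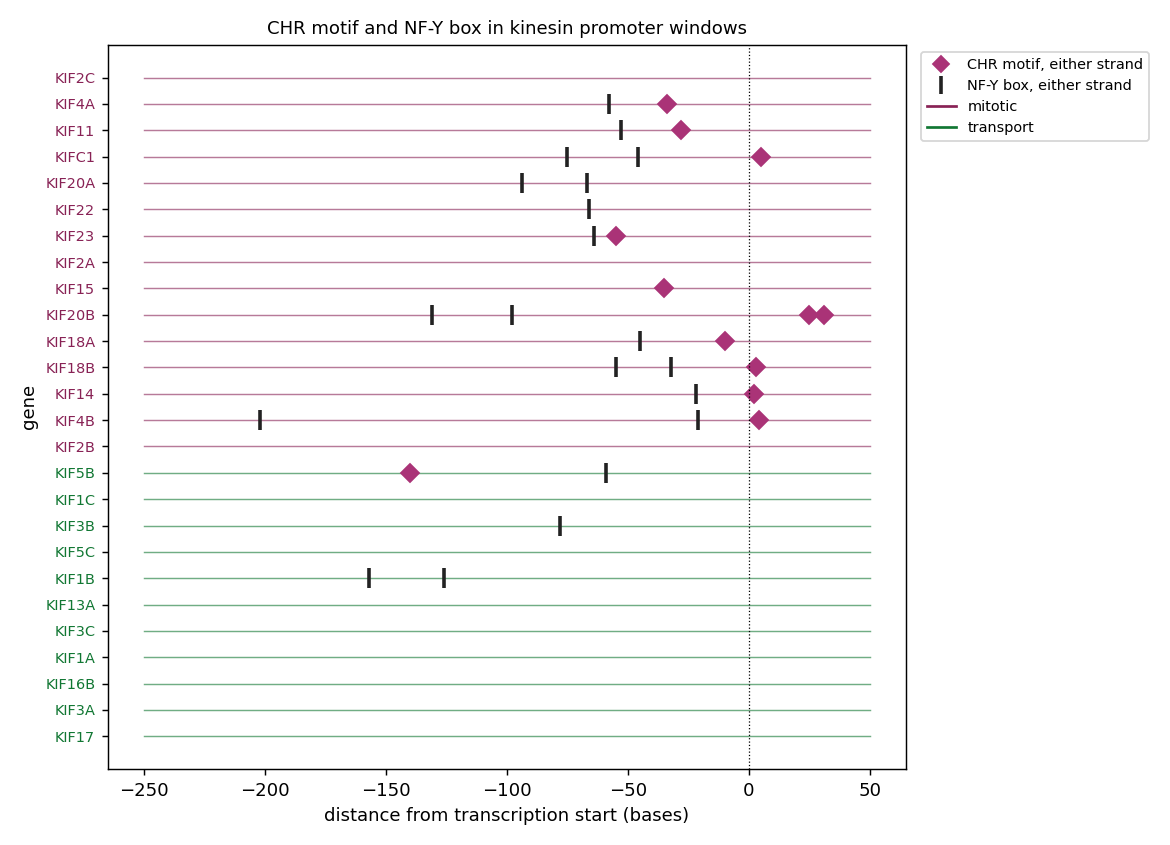
Position of the CHR motif TTTGAA (diamonds) and of the NF-Y box CCAAT (bars), on either strand, in bases from the transcription start. The first listed promoter window of each mitotic and transport kinesin is drawn, and TTCGAA is not marked. CHR motifs of 10 mitotic genes lie within 55 bases of the start, mostly downstream of an NF-Y box, and the only one among transport genes, in KIF5B, lies 140 bases upstream.

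The 150 bases directly upstream of the RefSeq start are given below for 5 mitotic kinesins that hold TTTGAA there, then for the 2 that fell, and last for 2 abundant transport kinesins. The RefSeq start is not always the deposited gene start. The KIF20A stretch lies inside the gene span given above, and those of KIF2C, KIF15 and KIF23 run past the deposited start. Capitals mark TTTGAA or its reverse complement TTCAAA, and CCAAT or its reverse complement ATTGG.
KIF11 (chr10:92592980-92593129, plus strand): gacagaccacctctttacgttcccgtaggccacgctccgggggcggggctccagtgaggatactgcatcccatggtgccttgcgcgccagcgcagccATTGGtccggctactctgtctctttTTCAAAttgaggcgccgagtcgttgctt
KIF4A (chrX:70289954-70290103, plus strand): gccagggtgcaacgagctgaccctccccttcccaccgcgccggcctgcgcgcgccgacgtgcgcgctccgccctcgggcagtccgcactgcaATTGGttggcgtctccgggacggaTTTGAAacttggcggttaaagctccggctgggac
KIF15 (chr3:44761644-44761793, plus strand): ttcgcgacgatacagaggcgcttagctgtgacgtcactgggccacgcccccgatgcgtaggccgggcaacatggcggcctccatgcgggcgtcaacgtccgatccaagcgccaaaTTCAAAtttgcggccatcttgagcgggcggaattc
KIF18A (chr11:28108157-28108306, minus strand): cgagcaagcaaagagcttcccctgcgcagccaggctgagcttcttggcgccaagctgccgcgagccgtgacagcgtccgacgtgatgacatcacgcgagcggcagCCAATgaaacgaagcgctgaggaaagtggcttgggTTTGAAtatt
KIF23 (chr15:69414199-69414348, plus strand): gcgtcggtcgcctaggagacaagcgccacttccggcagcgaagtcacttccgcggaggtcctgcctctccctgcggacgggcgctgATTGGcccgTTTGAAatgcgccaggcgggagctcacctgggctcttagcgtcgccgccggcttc
KIF2C (chr1:44739687-44739836, plus strand): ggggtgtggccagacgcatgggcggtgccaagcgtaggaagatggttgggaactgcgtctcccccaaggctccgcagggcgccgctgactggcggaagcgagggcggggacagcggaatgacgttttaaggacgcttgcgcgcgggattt
KIF20A (chr5:138178962-138179111, plus strand): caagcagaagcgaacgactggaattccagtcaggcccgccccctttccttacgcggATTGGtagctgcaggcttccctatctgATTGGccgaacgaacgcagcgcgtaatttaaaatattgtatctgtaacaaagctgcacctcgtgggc
KIF5B (chr10:32056426-32056575, minus strand): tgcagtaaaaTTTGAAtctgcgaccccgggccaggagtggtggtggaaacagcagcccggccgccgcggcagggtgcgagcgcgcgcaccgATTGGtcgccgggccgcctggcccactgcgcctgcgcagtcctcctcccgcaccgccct
KIF3B (chr20:32277501-32277650, plus strand): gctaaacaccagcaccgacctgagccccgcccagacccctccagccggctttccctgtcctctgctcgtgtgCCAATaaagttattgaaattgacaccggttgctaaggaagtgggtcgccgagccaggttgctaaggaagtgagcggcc

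In KIF11 the CHR letters begin 28 bases upstream of the start and the reverse NF-Y box 53 bases upstream. KIF4A has the same order, at 34 and 58 bases, and KIF23 at 55 and 64 bases. KIF15 holds only the CHR letters, 35 bases upstream. The log2 fold changes of the 10 mitotic genes with TTTGAA ran from -0.5 in the weakly read KIF4B to 0.16 in KIF23, and none passed. Those of the 4 tested mitotic genes without it ran from -0.38 in KIF20A to 0.19 in KIF2A.

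Transport kinesins had log2 fold changes on both sides of 0, and none of the 15 passed. KIF5A, a neuronal heavy chain of conventional kinesin, was at 2.01, 1.67 and 1.54 FPKM in the control libraries and at 2.52, 2.23 and 2.67 FPKM after SIGLEC15 siRNA. Its groups were apart, and the difference fell short of the threshold in the edgeR test (log2 fold change 0.51, SE 0.137, 95% interval 0.18 to 0.83, adjusted p = 0.0982). The DESeq2 test called it, with an adjusted p of 0.0031. KIF5B was at 36.71, 36.56 and 34.27 FPKM against 32.37, 40.57 and 42.07 FPKM, a spread in the second group that spans all control values (log2 fold change 0.1, 95% interval -0.14 to 0.33). KIF5C had a log2 fold change of -0.07 (95% interval -0.28 to 0.14). Of their partners, the light chain KLC1 went from 7.48 FPKM ± 0.242 to 8.74 FPKM ± 0.427 (SD over 3 libraries), with a fitted log2 difference of 0.22 (SE 0.0579, edgeR adjusted p = 0.0894). The light chain KLC2, outside the naming rule, went the other way, from 12.32, 11.41 and 12.72 FPKM to 10.35, 10.6 and 9.61 FPKM, also with the groups apart (log2 fold change -0.26, SE 0.0749, edgeR adjusted p = 0.122).

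KIF1C, which carries vesicles and mRNAs to the cell periphery, was at 24.13, 24.12 and 24.91 FPKM against 25.33, 26.39 and 25.39 FPKM, a log2 fold change of 0.07 with an interval of -0.05 to 0.2. KIF1B, a carrier of mitochondria and synaptic vesicle precursors, was at 5.31, 4.6 and 4.04 FPKM against 5.1, 5.82 and 5.75 FPKM (log2 fold change 0.26, SE 0.104, edgeR adjusted p = 0.247). Its relative KIF1A, the synaptic vesicle motor of axons, was at 4.4, 3.45 and 3.9 FPKM against 3.01, 2.78 and 3.52 FPKM, overlapping through replicate 3 of the second group (log2 fold change -0.34, SE 0.126, edgeR adjusted p = 0.213). The endosome motors KIF13A and KIF16B had log2 fold changes of 0.16 (SE 0.0999) and -0.02 (SE 0.0957), and the receptor carrier KIF13B had -0.2 (SE 0.105).

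In kinesin-2, KIF3B was at 18.6, 17.9 and 15.75 FPKM against 18.87, 20.03 and 20.23 FPKM, just apart between the groups (log2 fold change 0.18, SE 0.0738, edgeR adjusted p = 0.256). KIF3A had -0.1 (SE 0.164), KIF3C 0.06 (SE 0.0844) and KIFAP3 0.08 (SE 0.101), none past the threshold. KIF17, a kinesin of dendrites and cilia, was weakly expressed, with 48, 69 and 67 counts in the control libraries and 42, 12 and 30 counts after SIGLEC15 siRNA. Its log2 fold change was -1.23 (95% interval -2.3 to -0.16, edgeR adjusted p = 0.2). The minus-end motors KIFC3 and KIFC2 had 0.14 (SE 0.0844) and -0.12 (SE 0.406), the latter at 0.462 FPKM in the control group.

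As a share of the summed FPKM of the 42 motor genes, mitotic kinesins went from 64.81, 65.8 and 65.32% in the control libraries to 63.15, 61.63 and 62.25% after SIGLEC15 siRNA. Transport kinesins went from 29.88, 29.37 and 29.77% to 32.57, 34 and 32.79%. The groups did not overlap for either class, SIGLEC15 siRNA replicate 3 included; being a score over chosen members, the shares were not tested. Both are parts of one total, of which they hold nearly all, so a lower share of one class comes with a higher share of the other. The mitotic sum was 259.1, 260.9 and 247 FPKM in the control libraries and 221.9, 231.4 and 244.3 FPKM after SIGLEC15 siRNA. In SIGLEC15 siRNA replicate 3 it was thus only slightly under the lowest control library. The group means were 255.7 FPKM ± 7.56 and 232.6 FPKM ± 11.2 (SD, n = 3 each). Of the drop of 23.11 FPKM in the mean mitotic sum, KIF2C made up 8.85 FPKM and KIF20A 5.64 FPKM, more together than the net drop of the other 13 genes. The transport sum was 119.4, 116.5 and 112.6 FPKM in the control libraries and 114.5, 127.6 and 128.7 FPKM after SIGLEC15 siRNA, so that the groups overlapped.

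**Figure D5:**
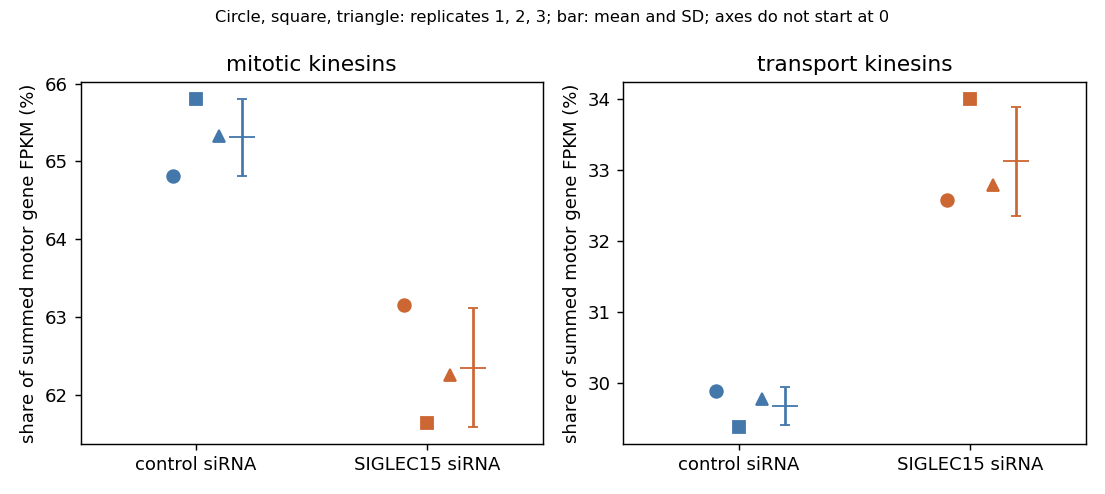
Share of the summed FPKM of the 42 motor genes held by mitotic (left) and transport kinesins (right), in percent, by library, with the mean and SD of 3 libraries; the axes do not start at 0. Mitotic shares lie between 64.81 and 65.8% in the control libraries and between 61.63 and 63.15% after SIGLEC15 siRNA, and transport shares between 29.37 and 29.88% and between 32.57 and 34%; both are parts of one total.

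Among the other kinesins, KIF26A, a non-motile member of growth factor signalling, came closest to the threshold. It was at 1.89, 2.14 and 2.02 FPKM in the control libraries and at 1.2, 1.56 and 1.3 FPKM after SIGLEC15 siRNA, with the groups apart (log2 fold change -0.58, SE 0.124, 95% interval -0.87 to -0.28, edgeR adjusted p = 0.0528; DESeq2 adjusted p = 0.000146). KIF21B, which restrains microtubule growth mainly in neurons and lymphocytes, was at 5.44, 4.4 and 4.39 FPKM against 1.52, 1.79 and 4.04 FPKM. Replicates 1 and 2 were low and replicate 3 was near the control level, so the log2 fold change of -0.95 had an SE of 0.364 (edgeR adjusted p = 0.219). Without SIGLEC15 siRNA replicate 3, the library nearest the control level, it was -1.52, with an edgeR adjusted p of 0.0127. Without any 1 of the other libraries KIF21B did not pass (edgeR adjusted p 0.327 to 0.447). Its relative KIF21A was at 4.16, 3.84 and 3.42 FPKM against 4.18, 4.86 and 4.84 FPKM (log2 fold change 0.28, SE 0.0959, edgeR adjusted p = 0.176).

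The cilium-linked kinesins showed no difference past the threshold. KIF7, which controls GLI factors at the ciliary tip, was at 3.68, 3.96 and 3.78 FPKM in the control libraries and at 3.34, 3.25 and 3.76 FPKM after SIGLEC15 siRNA, with overlapping groups (log2 fold change -0.14, 95% interval -0.38 to 0.1). It shares 589 exonic bases with TICRR on the opposite strand. KIF24, which holds back cilium formation, had 0.02 (95% interval -0.27 to 0.31), and KIF27 had -0.11 (SE 0.13). KIF6, a kinesin of motile cilia, was at 0.543, 0.486 and 0.522 FPKM against 0.484, 0.39 and 0.446 FPKM, a log2 fold change of -0.23 (SE 0.139). KIF9, which serves in the axoneme, was at 1.02 FPKM in the control group and had a log2 fold change of -0.14 (SE 0.298). KIF9 shares 870 exonic bases with its antisense gene KIF9-AS1, so reads of the 2 cannot be told apart without strand. KIF26B stayed near detection, with 19 to 56 counts per library. KIF1BP, the binding protein, was at 13.75, 13.11 and 13.51 FPKM against 15.17, 15.46 and 15.05 FPKM, fully apart (log2 fold change 0.18, SE 0.0568, edgeR adjusted p = 0.151). Over all 39 tested members 7 were fully apart toward lower and 6 toward higher values, shares close to the 13.7% and 12.9% of all genes tested.

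Genes that work with the kinesins were taken from lists chosen with earlier results of these data known. Of 21 spindle and cytokinesis partners 16 had a log2 fold change below 0, against 50.9% of all genes tested. In 7 the groups were fully apart toward lower values and in 1 toward higher, where 13.7% and 12.9% of all genes tested were. At the threshold 1 fell (4.76%), 0 rose and 20 missed it, where 4.65% of all genes tested were called. The list's median log2 fold change was -0.14. The one that fell was CDCA8, the borealin subunit of the chromosomal passenger complex that KIF20A moves. It was at 52.71, 51.63 and 51.96 FPKM in the control libraries and at 28.49, 27.16 and 29.5 FPKM after SIGLEC15 siRNA (log2 fold change -0.88, SE 0.0647, edgeR adjusted p = 0.0018), and it was called under all 13 alternatives. CENPE, the kinetochore kinesin that carries no KIF symbol, had -0.33 (SE 0.183, edgeR adjusted p = 0.399), and PRC1 had -0.14 (SE 0.0983). Of 21 tested transport partners 0 passed, with a median of -0.01. Of 23 genes of dynein and dynactin, the motor that walks the opposite way, 1 rose, the light chain DYNLT3 (log2 fold change 0.44, SE 0.0852, edgeR adjusted p = 0.0394). Its call was lost without any 1 of the 6 libraries (adjusted p 0.0829 to 0.136) and with no filter (0.0593). Of 24 tubulins and microtubule proteins 1 rose, TUBA4A, from 8.97 FPKM ± 0.141 to 13.92 FPKM ± 0.777 (SD, n = 3 each; log2 fold change 0.63, edgeR adjusted p = 0.0101). The TUBA4A call was lost without control replicate 2 (adjusted p = 0.0527). The medians of these last 2 lists were 0.03 and 0.08. Their called shares, 4.35% and 4.17%, were close to the 4.65% of all genes tested. Groups were fully apart toward higher values in 5 of 23 and 8 of 24 of these genes, and toward lower values in 2 and 4.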

How the data were processed

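Gene counts and FPKM values of 6 libraries, 3 per group, came from 1 deposited table; per the file headers the authors deposited whole-number counts and FPKM side by side. An FPKM of 0.0001, the authors' deposited placeholder, was read as 0. HISAT, StringTie and edgeR are listed in the submitters' processing notes; the sources used here give no version, genome build, strand setting or counting method. Coordinates are the table's; all 43 members are in GENCODE 29 (GRCh38), 19 with the same start and end. No value column was left without a sample (0 columns).

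Counts were tested with edgeR 4.0.16 (R 4.3.3): filterByExpr (minimum count 10, total 15), TMM scaling, quasi-likelihood F test, no covariate, all 6 libraries, Benjamini-Hochberg over all 18910 genes tested, threshold 0.05. SE is the log2 fold change over the square root of F; 95% intervals use the fit's degrees of freedom. CPM use TMM-scaled library sizes; class medians by library use log2(CPM + 0.5), and the SIGLEC15 permutation test log2(CPM + 1). "Apart" means that all 3 CPM values of one group lay above all 3 of the other. Alternatives were DESeq2 1.42.0, median-of-ratios scaling, no filter, a mean FPKM of at least 5, limma-trend (limma 3.58.1) on log2(FPKM + 1) and log2(FPKM + 0.1), a replicate block, each library left out, and another class membership. The edgeR, DESeq2 and limma fits were tested on simulated data. The changes set there were all larger than those of KIF2C and KIF20A, so that test does not cover calls of their size.

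The members, classes and lists were chosen with earlier results of these data known. Values in each library are given for members called, for the 4 members of each class with the smallest p and the 3 with the highest control FPKM; KIF23 and KIF1BP were added after their values were seen. Protein motifs were not analysed here. Of genes outside the family, SIGLEC15, CENPE, KLC1, KIFAP3, RACGAP1, PRC1, FOXM1 and MKI67 and called genes of the lists were to be named; CDC23 and other overlapping genes, KLC2, and marker genes with their levels, were added. KIF1BP matched the symbol rule and was put in a class of its own after the table was read.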

Additional observations from a re-analysis of the deposited data

How the results depend on the processing

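Both kinesin calls, KIF2C and KIF20A, held under median-of-ratios scaling, a mean FPKM of at least 5, DESeq2 and limma-trend with either pseudocount. With no filter 0 kinesins were called. DESeq2 called 8 kinesins, 5 lower and 3 higher, 3 of them transport kinesins, and 2916 genes in all, 1469 higher and 1447 lower, against 879, 419 and 460 in the edgeR test; the cause was not tested. Leaving out 1 library at a time gave 0 to 1 kinesins called (all lower), 0 mitotic ones, and 260 to 431 genes in all, 108 to 189 higher and 151 to 242 lower, from fits of 5 libraries. With the replicate block 0 kinesins and 50 genes were called, 15 higher and 35 lower. In that edgeR fit FOXM1, TUBA4A, COL1A1 and DYNLT3 had adjusted p of 0.0669, 0.0961, 0.115 and 0.206. Over all genes tested, deviations of libraries sharing a number correlated at r = -0.05, 0.01 and -0.06. That gave no sign of pairing by number but cannot exclude it, since weakly read genes weigh as much as strong ones.

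The mitotic median stayed within its spread between libraries under all alternatives (-0.25 to -0.13 without 1 library). The transport median, 0.06, was 0.13 with a mean FPKM of at least 5, where fewer genes were tested, 0.073 and 0.0756 under limma-trend with pseudocounts of 1 and 0.1, and 0.0447 to 0.0626 without 1 library. With KIF2A out of the mitotic class and KIF21A and KIF21B among the transport kinesins the medians were -0.17 and 0.06. Of 39 tested kinesins 33 kept their sign under the alternatives that tested them, 10 to 13 each, since weak genes did not pass the FPKM minimums. The other 6, none called, changed it only without 1 library: KIF22 (-0.022 to 0.055), KIF24 (-0.0403 to 0.124), KIF9 (-0.362 to 0.114), KIF16B (-0.0705 to 0.0348), KIF3A (-0.228 to 0.0626) and KIFC2 (-0.403 to 0.415). Depth limits the weakest members, KIF4B, KIF17, KIF26B and KIFC2, which have 12 to 238 counts per library.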
